A study of Mus musculus with 6 samples.

Results

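Hemoglobin and red cell genes were followed by RNA-seq in newborn mouse brown fat, taken as the entire depot between the shoulder blades. The 9 genes are those whose symbol in the deposited table is Hba-a1, Hba-a2, Hbb-bs, Hbb-bt, Alas2, Slc4a1, Epb42, Ahsp or Klf1. All 9 were found among the 19241 genes listed. The WT group holds 3 libraries that are titled WT, with the genotype given as Fstl1-floxed, and the series' design text calls these newborns wildtype. The KO group holds 3 libraries from newborns labelled Myf5-Fstl1 KO, in which Fstl1, a gene for a secreted glycoprotein, was lost in the Myf5 lineage. Myf5 is active in precursors of skeletal muscle and of much of this fat depot. The study asked what that loss does to brown fat. The labels do not say whether a library is 1 animal or a pool, so the p-values measure only the spread between these libraries, which may be technical. The Cre line and the strain are not given in the sources used here.

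Red cells carry oxygen on hemoglobin, a tetramer of alpha and beta globin chains that each hold a heme. Developing red cells make globin and heme together, wrap the cell in a membrane skeleton, and then expel the nucleus. The young cells that enter the blood, reticulocytes, still carry globin and Alas2 mRNA for a time, and newborn blood is rich in them. A depot taken whole includes the blood in its vessels. In bulk RNA, fewer cells of a type and less RNA per cell cannot be told apart.

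Values are FPKM, fragments per kilobase of transcript and per fixed number of mapped fragments, as deposited, and 3 values in a row are those of replicates 1, 2 and 3. The summed FPKM of a library lay between 486449 and 556968. Steps between low values gave an estimate of 14250000 to 15350000 reads per library, so that 3 reads on a transcript of 1000 nt come to about 0.21 to 0.23 FPKM. Fstl1 lay at 54.4 to 130.04 FPKM in WT and at 7.93 to 13.1 FPKM in KO (limma, log2 fold change −2.79, adjusted p 0.00979). The brown fat gene Ucp1 lay at 4366 to 6255 FPKM in WT and at 1695 to 3591.5 FPKM in KO, without overlap (limma, −1.08, adjusted p 0.0804). The labels give no sex, but Ddx3y, a gene of the Y chromosome, was at 59.5 to 60.8 FPKM in KO and at most 0.23 FPKM in WT, while Xist was at 44.8 to 85.5 FPKM in WT and at most 0.92 FPKM in KO. Sex and genotype therefore cannot be told apart in any difference below.

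The 4 adult globins are encoded in a pair of clusters. Hba-a1 (Entrez gene 15122, chr11:32283672-32284486) and Hba-a2 (110257, chr11:32296492-32297310) make the alpha chain. Hbb-bs (100503605, chr7:103826523-103827928) and Hbb-bt (101488143, chr7:103812524-103813923) make the beta chain. Positions are those of RefSeq on GRCm38.p6, the assembly also called mm10, which the submitters' processing notes name. Alas2 (11656, chrX:150547417-150570622) encodes the erythroid 5-aminolevulinate synthase, the first enzyme of heme synthesis in red cell precursors. The 250 bases just upstream of the start of these 5 genes are shown because their transcripts moved together across the libraries, as described below. Each is written 5′ to 3′ on the strand of the gene, in the order Hba-a1 (chr11:32283422-32283671, plus strand), Hba-a2 (chr11:32296242-32296491, plus), Hbb-bs (chr7:103827929-103828178, minus), Hbb-bt (chr7:103813924-103814173, minus) and Alas2 (chrX:150547167-150547416, plus). Capitals mark any match, on either strand, to CCAAT (reverse ATTGG), to CACCC (reverse GGGTG), to TATAA (reverse TTATA) or to GATAA (reverse TTATC).
Hba-a1: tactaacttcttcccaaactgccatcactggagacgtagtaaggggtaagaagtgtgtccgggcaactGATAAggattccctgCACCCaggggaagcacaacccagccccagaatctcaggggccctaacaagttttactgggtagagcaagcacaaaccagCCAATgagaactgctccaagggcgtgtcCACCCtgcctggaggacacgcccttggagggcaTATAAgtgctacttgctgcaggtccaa
Hba-a2: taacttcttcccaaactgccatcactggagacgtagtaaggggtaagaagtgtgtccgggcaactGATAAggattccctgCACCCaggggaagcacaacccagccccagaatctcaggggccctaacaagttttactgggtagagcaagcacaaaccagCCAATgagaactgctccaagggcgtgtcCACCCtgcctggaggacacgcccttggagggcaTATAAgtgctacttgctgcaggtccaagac
Hbb-bs: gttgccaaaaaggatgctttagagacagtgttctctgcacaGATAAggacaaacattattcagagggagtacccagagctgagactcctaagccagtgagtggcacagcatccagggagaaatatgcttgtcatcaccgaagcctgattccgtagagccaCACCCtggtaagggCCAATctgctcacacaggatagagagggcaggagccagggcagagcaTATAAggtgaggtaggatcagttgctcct
Hbb-bt: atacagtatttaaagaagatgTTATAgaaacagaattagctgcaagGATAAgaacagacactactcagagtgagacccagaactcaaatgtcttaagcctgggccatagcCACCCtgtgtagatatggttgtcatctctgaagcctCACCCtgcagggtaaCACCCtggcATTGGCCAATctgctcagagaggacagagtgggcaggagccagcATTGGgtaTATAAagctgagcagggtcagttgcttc
Alas2: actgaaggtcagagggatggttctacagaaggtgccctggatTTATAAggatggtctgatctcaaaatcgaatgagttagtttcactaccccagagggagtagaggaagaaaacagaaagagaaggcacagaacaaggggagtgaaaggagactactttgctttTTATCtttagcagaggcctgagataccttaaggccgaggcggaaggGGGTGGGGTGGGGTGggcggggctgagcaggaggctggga

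Elements of the CCAAT kind are long known in globin promoters. Klf1 binds sites of the CACCC kind, and Gata1 binds GATA motifs. In the 4 globins a TATAA began 27 to 30 bases before the start, and a CCAAT began 75 to 91 bases before it. Alas2 had 0 CCAAT, 3 CACCC and 1 GATAA. RefSeq promoters were matched for 7 of the 9 genes. GATAA was present in 7 of the 7, CACCC in 6, TATAA in 6 and CCAAT in 5. Of 32851 promoters of the same length, 22.6% held GATAA, 52.0% CACCC, 22.8% TATAA and 33.9% CCAAT. Matches to TATAA and to its reverse can overlap, as they do in Alas2, and such matches were counted separately. These matches are a description of the letters and were not tested.

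The near identity of the copies limits what can be said of each globin alone. Upstream of the start, Hba-a2 repeats Hba-a1 shifted by 3 bases, with 0 differences in 247 bases compared, whereas Hbb-bs and Hbb-bt were the same at 178 of 243 aligned bases (73.2%). In the transcripts, Hba-a1 and Hba-a2 were the same at 537 of 538 aligned bases, and Hbb-bs and Hbb-bt at 581 of 626 (92.8%). Of all windows of 50 nt, 67.5% of those in Hba-a1 and 86.9% of those in Hba-a2 also occur in the other alpha gene, as do 65.8% of those in Hbb-bs and 58.3% of those in Hbb-bt in the other beta gene. No window was shared between alpha and beta. Hbb-b1, at 0 to 1.53 FPKM, and Hbb-b2, at 0 to 0.02 FPKM, are further beta globin entries and were not part of this comparison. How the authors' counting divided such reads is not given in the sources used here, so the split within each pair is uncertain. The copies also differ in length, at 699 and 554 nt for alpha and 628 and 703 nt for beta. Alpha against beta in FPKM can therefore also depend on how the reads were divided, to an extent not measured here.

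The globins were among the most abundant transcripts of the depot, and WT replicate 3 held far more of them than any other library. Hba-a1 measured 1254, 1879.7 and 5600.5 FPKM across WT against 1106, 1334 and 1597 FPKM across KO. Hbb-bs measured 1313, 1987 and 5352 FPKM across WT against 1217, 1504 and 1411 FPKM across KO. The groups overlapped for both genes, since WT replicate 1 lay within the KO range. By FPKM, Hba-a1 ranked between 4 and 52 and Hbb-bs between 5 and 41 among all genes of a library.

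The copies with lower levels were also highest in WT replicate 3. Hba-a2 measured 576, 890.4 and 2600.3 FPKM across WT against 515, 647 and 658 FPKM across KO. Hbb-bt measured 211, 278 and 776 FPKM across WT against 211, 261 and 251 FPKM across KO. WT replicate 3 exceeded the next highest library 2.98 times for Hba-a1, 2.92 times for Hba-a2, 2.69 times for Hbb-bs and 2.79 times for Hbb-bt. Apart from that library the 4 globins stayed within a narrow band, and their sum was 3048 to 5036 FPKM in 5 libraries against 14329.5 FPKM in WT replicate 3. The sum made up 2.57% of all FPKM in WT replicate 3 and 0.607% to 0.97% in the others.

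**Figure D1:**
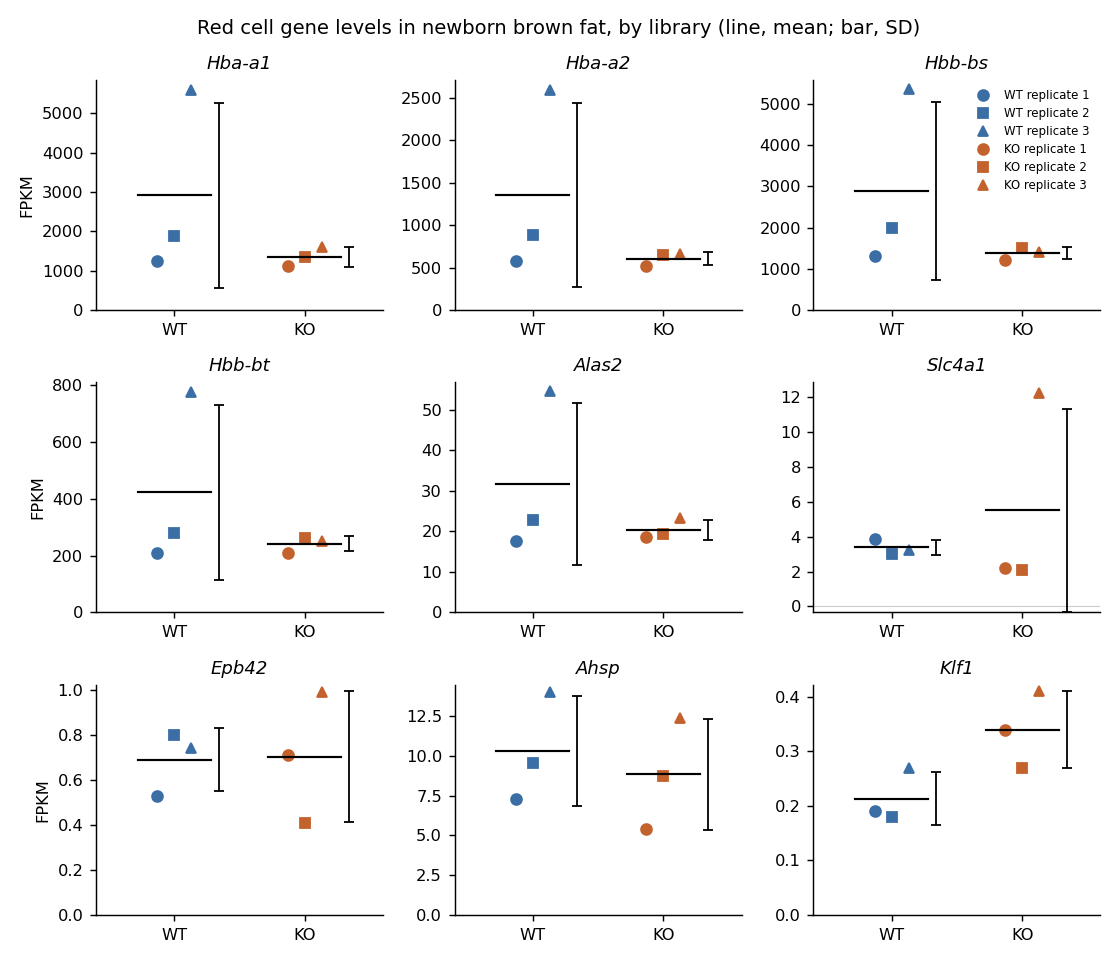
FPKM of each of the 9 genes in the WT and KO libraries; symbols are libraries, horizontal lines the group means and vertical bars 1 SD on either side (n = 3 per group). WT replicate 3 stands far above the other 5 libraries for the 4 globins and Alas2, and KO replicate 3 for Slc4a1.

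Against this spread no globin passed the test. The test was limma on log2(FPKM + 1) over the 13331 genes whose mean level reached 0.5 FPKM, with Benjamini-Hochberg adjustment and a threshold of 0.05. Hba-a1 had a mean of 2912 ± 2349.6 FPKM (SD, n = 3) in WT and of 1346 ± 246 FPKM in KO, a log2 fold change of −0.83 (limma, SE 0.46, 95% interval −1.87 to 0.22, adjusted p 0.367). Hbb-bs had means of 2884 ± 2164 and 1377 ± 146 FPKM, a log2 fold change of −0.81 (limma, SE 0.43, 95% interval −1.78 to 0.15, adjusted p 0.341). For Hba-a2 the log2 fold change was −0.87 and for Hbb-bt −0.57 (limma, adjusted p 0.342 and 0.478). The 95% intervals of all 4 included 0.

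Over the 9 genes, 0 of the 8 that entered the fit were called (limma, adjusted p; 0 also at an unadjusted p under 0.05), where 2.21% of all tested genes were called and 19.2% had an unadjusted p under 0.05. Klf1 fell under the filter and was not tested. The groups overlapped, or in Klf1 met at 0.27 FPKM, in all 9 genes, while they did not overlap in 24.9% of tested genes. The median log2 fold change of the 8 was −0.51, with 6 lower and 2 higher in KO, against a median of 0.01 over all tested genes. An exact permutation test of the FPKM, two-sided, gave p from 0.2 for Klf1 to 1.0 for Slc4a1 and Epb42, where 3 libraries against 3 can reach 0.1 at the lowest.

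The lower KO values of the globins rested on WT replicate 3. Without it the log2 fold changes were −0.21 for Hba-a1, −0.25 for Hba-a2, −0.24 for Hbb-bs and −0.01 for Hbb-bt (limma, adjusted p 0.627 to 0.98). Alas2 then stood at 0.02 and Ahsp at 0.01. Without WT replicate 1, the lowest WT library for the globins, the same 4 stood at −1.29, −1.33, −1.25 and −0.95, with adjusted p from 0.108 to 0.182 in limma.

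**Figure D2:**
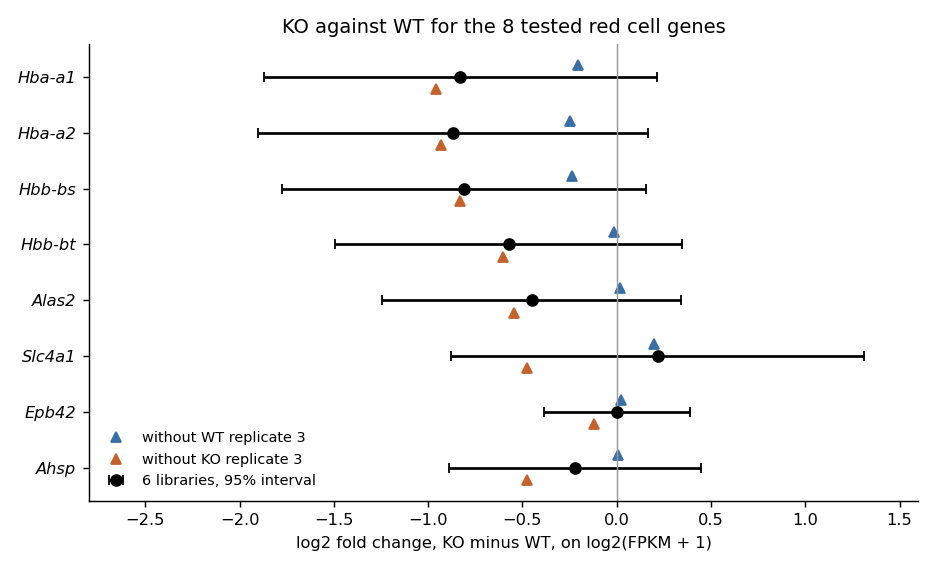
Log2 fold change of KO against WT for the 8 tested genes; black points and bars are the fit to 6 libraries with its 95% interval, and triangles are the fits that leave out WT replicate 3 (blue) or KO replicate 3 (orange). All 8 intervals include 0, and the values for the globins and Alas2 move to between −0.25 and 0.02 without WT replicate 3.

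Alas2 moved with the globins from library to library. It measured 17.6, 22.8 and 54.6 FPKM across WT against 18.5, 19.4 and 23.2 FPKM across KO, so that WT replicate 3 was 2.36 times the next highest library and the groups overlapped. The log2 fold change was −0.45 (limma, SE 0.35, 95% interval −1.24 to 0.34, adjusted p 0.518). Per 1000 FPKM of adult globin, Alas2 came to 5.25, 4.53 and 3.81 in WT and to 6.07, 5.19 and 5.92 in KO. It thus varied 1.59 times in proportion to globin while globin itself varied 4.7 times.

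Ahsp (170812) encodes the alpha-hemoglobin stabilizing protein, a chaperone that holds free alpha chains until they pair with beta. It measured 7.3, 9.57 and 14.04 FPKM across WT against 5.42, 8.71 and 12.4 FPKM across KO. WT replicate 3 was again the highest, but only 1.13 times KO replicate 3. The log2 fold change was −0.22 (limma, SE 0.29, 95% interval −0.89 to 0.45, adjusted p 0.733). In proportion to globin, Ahsp was lowest in WT replicate 3, at 0.98 per 1000 FPKM of adult globin, and highest in KO replicate 3, at 3.17, with the other 4 libraries at 1.78 to 2.33.

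The embryonic globins, made by the first wave of red cells and largely silent by birth, were close to the limit of detection. Hba-x, the embryonic zeta chain, measured 0.47, 1.25 and 2.19 FPKM across WT against 0.37, 0.57 and 1.25 FPKM across KO. Hbb-y, the embryonic epsilon-y chain, measured 0.6, 0.69 and 1.17 FPKM across WT against 0.5, 0.81 and 0.46 FPKM across KO. WT replicate 3 was the highest library for both. By the estimate from the steps, these values rest on about 3.85 to 24.4 reads for Hba-x and 4.01 to 10.2 reads for Hbb-y. Neither passed (limma, log2 fold changes −0.37 and −0.19, adjusted p 0.521 and 0.592). Hbb-bh1 was listed above 0 in WT replicate 1 alone, at 0.12 FPKM, which is about 1 read. Hba-x, Hbb-y and Hbb-bh1 together came to 0.234 to 0.436 per 1000 FPKM of adult globin, with the lowest value in WT replicate 3. Of the theta globins, Hbq1b was at 0 to 0.85 FPKM and Hbq1a at 0.19 FPKM in WT replicate 3 and at 0 elsewhere.

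Within the adult globins the proportions were steady. Hba-a2 came to 0.459, 0.474 and 0.464 of Hba-a1 in WT and to 0.465, 0.485 and 0.412 in KO. Alpha globin was 1.2, 1.22 and 1.34 times beta globin in WT and 1.14, 1.12 and 1.36 times in KO, highest in replicate 3 of each group. Hbb-bt came to 0.16, 0.14 and 0.145 of Hbb-bs in WT and to 0.173, 0.173 and 0.178 in KO. The last ratio did not overlap between the groups, on reads that the pair partly share, and it was not tested. None of these 3 ratios varied by more than 1.27 times over the 6 libraries. The alpha copies share reads as well, and the part that the unknown division of shared reads has in these ratios was not tested.

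**Figure D3:**
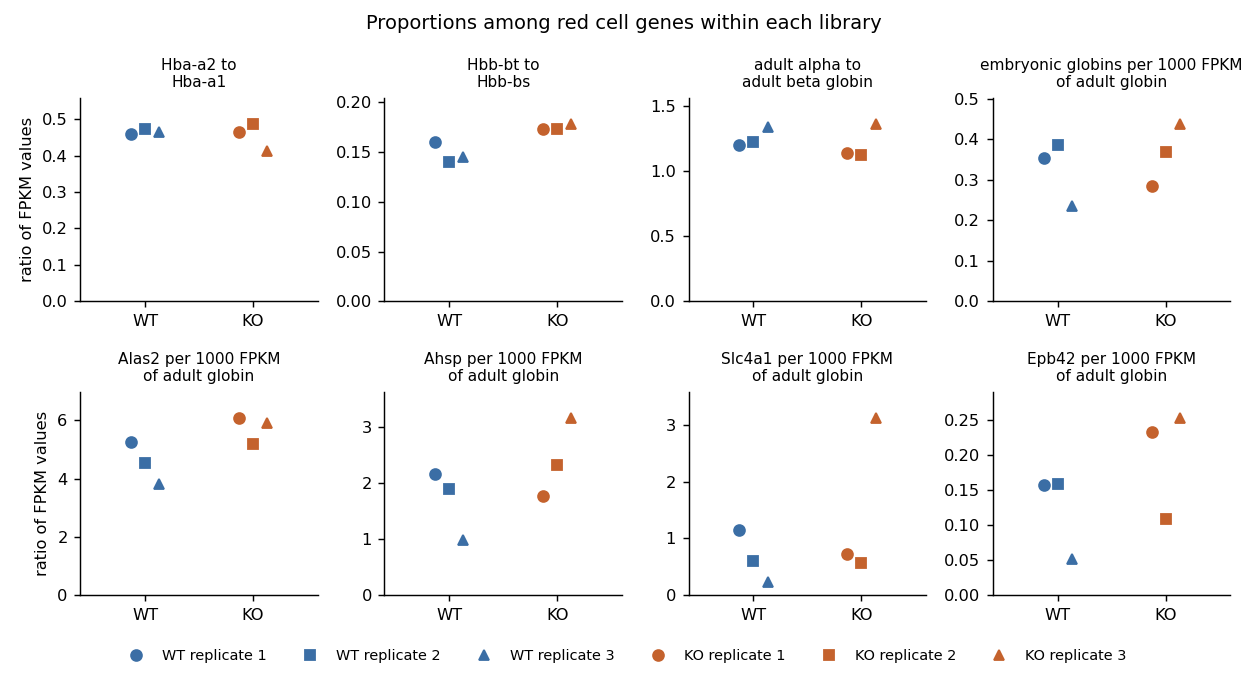
Ratios of FPKM values within each library, with axes from 0; the first 3 panels compare globins with each other and the rest set a gene against the summed adult globins. The ratios among adult globins vary by at most 1.27 times, that of Alas2 by 1.59 times and that of Slc4a1 by 13.7 times, from 0.228 in WT replicate 3 to 3.12 in KO replicate 3.

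The membrane genes did not follow the globins. Slc4a1 (20533, chr11:102348820-102365281) encodes band 3, the anion exchanger that is the main protein of the red cell membrane and anchors its skeleton. It measured 3.86, 3.02 and 3.26 FPKM across WT against 2.2, 2.09 and 12.2 FPKM across KO. KO replicate 3 was 3.16 times the next highest library, WT replicate 3 was in the middle of the WT values, and the other 2 KO libraries were the lowest of the 6. The log2 fold change was 0.22 (limma, SE 0.48, 95% interval −0.88 to 1.31, adjusted p 0.853), and without KO replicate 3 it was −0.47 (limma, adjusted p 0.266). The values rest on an estimated 140.3 to 817 reads.

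Epb42 (13828, chr2:121017891-121036877) encodes protein 4.2, which ties band 3 to the skeleton. It measured 0.53, 0.8 and 0.74 FPKM across WT against 0.71, 0.41 and 0.99 FPKM across KO. KO replicate 3 was the highest and KO replicate 2 the lowest, on an estimated 25.5 to 59.9 reads over the libraries. The log2 fold change was 0.0006 (limma, SE 0.17, 95% interval −0.39 to 0.39, adjusted p 0.999). Klf1 (16596, chr8:84901982-84905291) encodes the erythroid Krüppel-like factor, which switches on beta globin and many other red cell genes in precursors. It measured 0.19, 0.18 and 0.27 FPKM across WT against 0.34, 0.27 and 0.41 FPKM across KO, on an estimated 3.94 to 9.07 reads. The 3 KO values were at or above the highest WT value, and KO replicate 3 was the highest. Its log2 fold change was 0.14 with a pseudocount of 1, 0.49 with 0.1 and 0.65 with 0.01. When the filter was dropped, Klf1 entered the fit and did not pass (limma, adjusted p 0.324).

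The 2 patterns can be put side by side. Across the 6 libraries, which had a similar depth, Pearson's r of log2(FPKM + 1) with the mean of the 4 adult globins was 0.985 for Alas2, 0.883 for Hba-x, 0.871 for Hbb-y and 0.746 for Ahsp. It was 0.21 for Epb42, −0.05 for Slc4a1 and −0.12 for Klf1. These are descriptions of 6 points, of which WT replicate 3 lies farthest from the rest in globin.

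**Figure D4:**
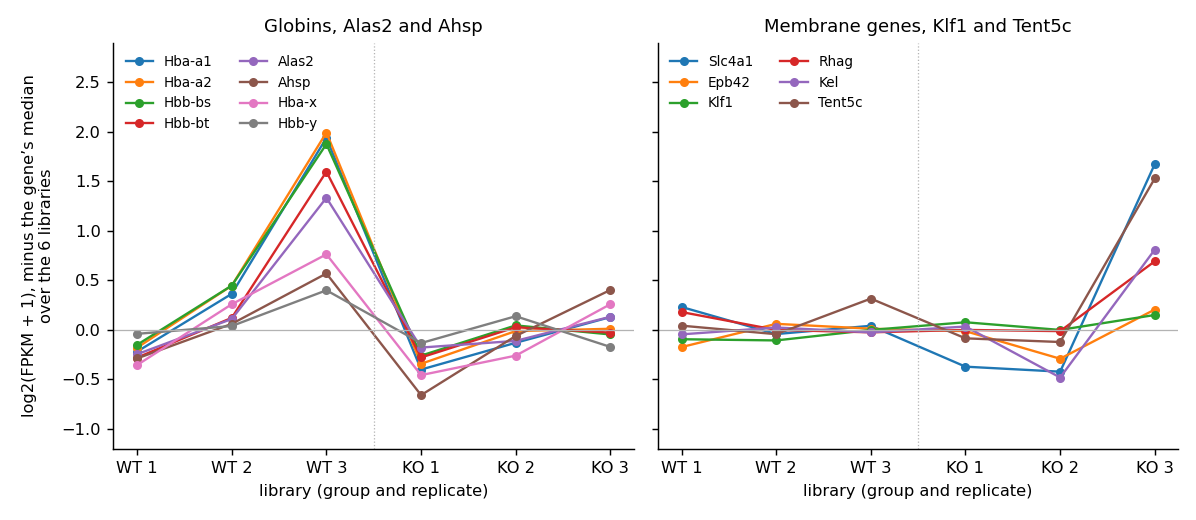
Log2(FPKM + 1) of each gene minus its median over the 6 libraries, with WT libraries left and KO libraries right of the dotted line. The globins, Alas2 and Ahsp peak in WT replicate 3, while Slc4a1, Epb42 and Klf1 peak in KO replicate 3. Rhag, Kel and Tent5c also peak there, but they were chosen after their values were seen.

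The wider set of red cell genes was read from 6 lists with 69 genes, of which 68 were in the table and 48 were tested. In all, 1 was called lower and 1 higher in KO in limma, and 12 of 48 had an unadjusted p under 0.05, near the 19.2% of all tested genes. The 2 calls stand beside 2.21% called among all tested genes. The median log2 fold change was −0.09, with 30 lower and 18 higher. Gypc, which encodes glycophorin C and is also made outside red cells, fell from 41.2, 50.2 and 38.4 FPKM to 26.7, 23.6 and 16.7 FPKM (limma, log2 fold change −0.94, SE 0.19, adjusted p 0.0464). Flvcr1, listed in the table under its older symbol Mfsd7b, encodes a heme exporter and rose from 5.52, 4.58 and 4.04 FPKM to 10.5, 8.97 and 9.29 FPKM (limma, a log2 fold change of 0.90 with SE 0.15 and adjusted p 0.0323). The call of Gypc was missing in 10 and that of Flvcr1 in 6 of 17 alternative fits, among them all 6 (Gypc) and 5 of the 6 (Flvcr1) that leave out 1 library.

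In the heme pathway the other enzymes are made by all cells, brown adipocytes included, whose respiratory chain needs heme. All 8 enzymes outside the 9 genes were lower in KO by their log2 fold change, with a median of −0.30, and 0 were called (limma; 2 of 8 at an unadjusted p under 0.05, beside 2.21% called and 19.2% at that p among all tested genes). Alas1, the housekeeping synthase, measured 96.8, 129 and 94.4 FPKM across WT against 78.9, 51.2 and 70.8 FPKM across KO, without overlap (limma, log2 fold change −0.67, adjusted p 0.115). Alad, the next enzyme, measured 15.3, 16.8 and 20.5 FPKM across WT against 13.2, 11.2 and 10.9 FPKM across KO (limma, −0.53, adjusted p 0.121). In WT replicate 3, where globin and Alas2 were highest, 5 of the 8 (62.5%) also had their highest value, as did 15.6% of all genes in the table.

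The list of 19 red cell membrane and skeleton genes held its highest values in KO replicate 3. In 14 of the 19 (73.7%) that library was the highest, against 15.0% of all genes in the table, and WT replicate 3 was the highest in 0 of the 19. Rhag, the Rh-associated glycoprotein, measured 0.36, 0.2 and 0.18 FPKM across WT against 0.2, 0.19 and 0.94 FPKM across KO. Kel, the Kell blood group protease, measured 0.42, 0.49 and 0.44 FPKM across WT against 0.5, 0.05 and 1.57 FPKM across KO. Both were chosen after their values were seen, and their values in KO replicate 3 rest on an estimated 32.1 and 58.05 reads. By the rule for named genes, Aqp1 (limma, log2 fold change 0.47, adjusted p 0.199), which endothelium also makes, and Ank1 (−0.81, 0.202), which muscle also makes, did not pass.

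Late red cell genes shared part of this pattern. Of 17, 10 were highest in KO replicate 3 (58.8%) and 3 in WT replicate 3, and 0 of the 13 tested were called (limma; 3 of 13 at an unadjusted p under 0.05, beside 2.21% and 19.2% of all tested genes). Tent5c, listed as Fam46c, measured 1.59, 1.44 and 2.13 FPKM across WT against 1.37, 1.31 and 6.26 FPKM across KO, and was also chosen after its values were seen. Fbxo7 (limma, log2 fold change 0.66, adjusted p 0.055), Car2 (−0.73, 0.0644) and Car1 (0.84, 0.13) had the smallest p-values of the list. Car1, a carbonic anhydrase abundant in red cells, measured 0.79, 0.82 and 1.31 FPKM across WT against 3.05, 3.65 and 1.29 FPKM across KO, so it was highest in KO replicates 1 and 2 and lay within the WT range in KO replicate 3.

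**Figure D5:**
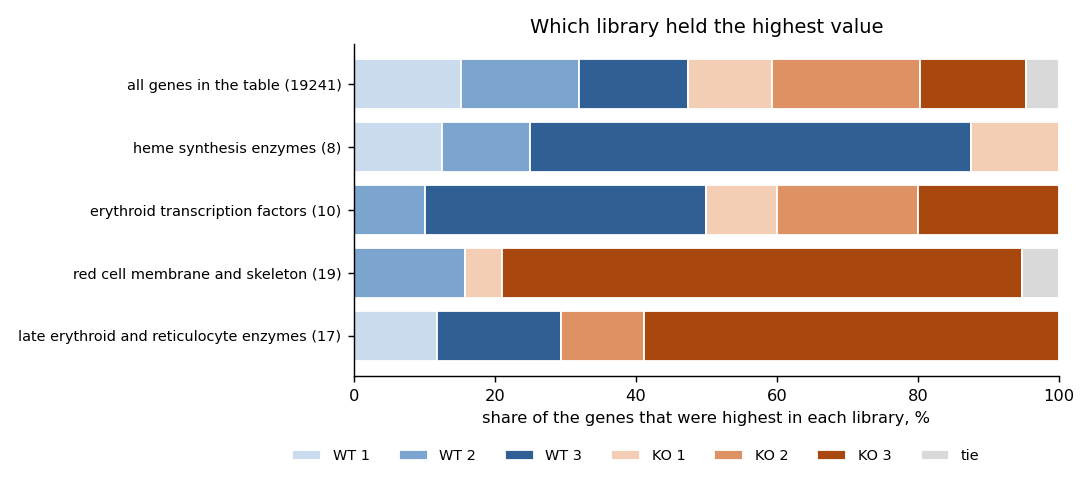
Share of genes whose highest FPKM lay in each library, for all genes of the table and for 4 red cell lists, with the number of genes in brackets and ties in grey. KO replicate 3 holds the highest value in 73.7% of the membrane list and 58.8% of the late red cell list, against 15.0% of all genes.

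The 10 transcription factors listed for red cell precursors spanned a wide range of levels. Ldb1, a cofactor made in most cells, was highest at 34.6 to 47.2 FPKM, followed by Sox6 at 5.59 to 12.4 FPKM, Lmo2 at 6.47 to 11.3 FPKM and Zfpm1 at 2.76 to 5.25 FPKM. Tal1 and Nfe2 lay at 1.44 to 1.91 and 0.91 to 1.95 FPKM. The other 4 were under the filter. Gata1 was at 0.18 to 0.4 FPKM, Gfi1b at 0.04 to 0.16 FPKM, Bcl11a at 0.31 to 0.66 FPKM and Myb at 0.36 to 0.56 FPKM over the 6 libraries. Of the 6 tested of 10, 0 were called (limma, 1 at an unadjusted p under 0.05, beside 2.21% and 19.2% of all tested genes). That was Sox6, which muscle and fat also use, with a log2 fold change of 0.51 (limma, adjusted p 0.255), and Lmo2 followed with −0.25 (limma, adjusted p 0.465). In the list for iron uptake and receptors, 8 genes were tested. Flvcr1 was called higher and 0 were called lower in limma, and 2 had an unadjusted p under 0.05, beside the same shares. Slc11a2, an iron importer, stood at −0.73 (limma, adjusted p 0.0625) without overlap between groups, as seen in 24.9% of all tested genes. Slc25a37, which carries iron into mitochondria, measured 6.0, 7.38 and 7.2 FPKM across WT against 4.63, 5.29 and 5.7 FPKM across KO, also without overlap (limma, log2 fold change −0.34, adjusted p 0.261).

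Markers of other blood and tissue cells were read beside the globins. The summed level of 10 neutrophil markers was 238 FPKM in WT replicate 3, inside the range of 153 to 423 FPKM of the other 5 libraries, and that of 10 platelet markers was 65.7 FPKM, inside 43.2 to 105 FPKM. For 10 lymphocyte markers it was 2.56 FPKM, inside 1.91 to 3.31 FPKM. Across the WT libraries alone, the neutrophil sum was 153, 167 and 238 FPKM and the lymphocyte sum 2.41, 2.53 and 2.56 FPKM. Both were thus highest in replicate 3 among WT, whereas the platelet sum, at 43.2, 84.1 and 65.7 FPKM, was highest in replicate 2. The 10 endothelial markers summed to 793 FPKM in WT replicate 3, the highest library, against 588 to 733 FPKM in the others. Among the neutrophil markers Mmp8 rose from 2.16, 4.18 and 2.91 FPKM to 7.52, 6.32 and 6.26 FPKM (limma, log2 fold change 0.94, adjusted p 0.0483), a call that 10 of 16 alternative fits did not keep. Of 8 hepatocyte markers Alb was at most 0.33 FPKM and Afp at most 0.07 FPKM. Of the 10 skeletal muscle markers the sum was 388 FPKM in KO replicate 1 and 1464 to 2157 FPKM in the other 5 libraries. In KO replicate 3, where Slc4a1 was highest, the platelet sum was the highest of the 6 at 105 FPKM. Most of it was Pf4 at 83.0 FPKM and Ppbp at 17.2 FPKM, and 2 of the 10 platelet markers were highest in that library. Its neutrophil sum was 182 FPKM and its lymphocyte sum was the lowest at 1.91 FPKM. In limma, 0 of 6 tested platelet, 0 of 2 lymphocyte and 0 of 10 endothelial markers were called. At an unadjusted p under 0.05 there were 0, 0 and 1. For muscle 0 of 10 and for hepatocytes 0 of 1 tested markers were called, with 1 and 0 under that p. Of the 8 tested neutrophil markers 1, Mmp8, was called and 3 were under that p. Among all tested genes 2.21% were called and 19.2% were under that p. Of 10 brown adipocyte markers 1, the fatty acid elongase Elovl3, was called lower in limma and 5 had an unadjusted p under 0.05, where 19.2% of all tested genes did. Their sum was highest in WT replicate 3, at 12703 FPKM against 6549.8 to 10577 FPKM in the others. The part of these cell types in the red cell values was not tested.

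Outside the 9 genes, of which Alas2 ran closest to the globins (r 0.985), the genes with the most similar pattern were sought by r with the mean of the 4 globins, among 2099 other genes whose mean reached 1 FPKM, with a range of at least 1 in log2(FPKM + 1). The 10 highest were Abhd17a, Jup, Romo1, Chchd10, Ndufa11, H2afx, Ndufs7, Atp5d, Eng and AY074887, with r from 0.979 to 0.921 over 6 libraries. Of the 10, 0 are in the red cell lists. A peak in WT replicate 3 follows from how they were chosen. It stood 1.39 to 1.99 times above the next library, where that of the globins stood 2.69 to 2.98 times above it. Chchd10, for instance, measured 654, 822 and 1337 FPKM across WT against 687, 640.2 and 849 FPKM across KO.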

How the data were processed

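Bulk RNA-seq of 6 libraries of newborn brown fat, 3 WT and 3 KO, was read from 1 table of 19241 genes. The authors deposited FPKM values per gene and library. Per the submitters' processing notes, HISAT2 2.0.4, Bowtie2 2.2.5, DESeq2 and the build mm10 were used. Which tool counted reads, and how reads shared by gene copies were divided, is not given in the sources used here. There were 0 columns of values left unused.

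Differences were tested with limma 3.58.1 in R 4.3.3 (lmFit and eBayes with trend) on log2(FPKM + 1), for genes with a mean of 0.5 FPKM or more over the 6 libraries, with Benjamini-Hochberg adjustment over all 13331 tested genes and a threshold of 0.05. Fold changes are on the log2(FPKM + 1) scale, which understates changes of low genes. On simulated data with 200 of 13331 genes changed by 1.5 (log2), 174 were recovered with 5 false calls. The changed genes were drawn only from those well above the filter, and the noise was independent between genes and libraries. The simulation thus held no shift shared by many genes of a library, and it does not measure recovery for low genes. Ratios and correlations are descriptions without a test. Reads per library were estimated from the steps between low FPKM values, by seeking the depth and length offset that brought most values near whole reads. Of these values, 74.7% to 79.3% lay within 0.2 reads of a whole number. Shuffled lengths gave 37.4% to 46.5% at that same depth and offset. No new search was made for them, so these shares are not a like comparison. The estimated reads are approximate. Transcript windows come from GENCODE and promoters from RefSeq on GRCm38.p6.

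The 9 genes and all lists were chosen with earlier results of these data known. The genes named were the 9, the embryonic globins, Fstl1 and Ucp1 as checks, up to 3 tested genes with the smallest p from each red cell or clearance list, and, outside the 9, the 10 genes most like the adult globins. Other genes (Rhag, Kel, Tent5c, the other transcription factors, Xist, Ddx3y, single markers of other cells and genes like Slc4a1) were named after their values were seen; marker lists of other cells are given mainly as sums and counts. Some items are not reported here. The 17 alternatives changed the pseudocount, the filter, the scaling, the variance model or the replicate block, or left out 1 library.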

Additional observations from a re-analysis of the deposited data

How the results depend on the processing

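Of the 9 genes, 0 were called in the 17 alternatives, with 9 tested when no filter was used, 6 with a filter at a mean of 5 FPKM (without Slc4a1, Epb42 and Klf1) and 8 in the others. The number of genes called, 295, became 35 with no filter on low values, 191 after scaling each library to a common sum of FPKM and 167 with the replicate block, and it ranged from 31 (without WT replicate 3) to 370 (without WT replicate 1) when 1 library was left out. Samples with the same number deviated together only weakly (r over all genes 0.068, 0.043 and 0.043), and numbers were therefore not treated as pairs. Every library correlated best with its own number, a hint from the data and not from the design.

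The log2 fold change of Epb42, 0.0006, turned to −0.027 with a pseudocount of 0.1, −0.039 with 0.01, −0.0055 with median-of-ratios scaling and −0.024 with quantile normalization, and ranged from −0.12 to 0.13 when 1 library was left out. That range was −0.77 to 0.015 for Alas2, −0.47 to 0.057 for Ahsp and −0.47 to 0.57 for Slc4a1. The cause of these changes was not tested. Over 32 named genes and 537 alternative values, 492 were counted as unchanged, which for tested genes means the same direction and call. For Klf1, which the main fit did not test, it means a fold change within 1 SD of the main value. Klf1 gave 15 of the 492. Klf1, on fewer than 10 estimated reads per library, moved to 0.49 and 0.65 with the 2 smaller pseudocounts.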

Other observations

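The proteins that clear free hemoglobin and heme were measured beside the red cell genes. Of 11 such genes, 10 were tested and 0 were called (limma; 3 at an unadjusted p under 0.05, beside 2.21% called and 19.2% at that p among all tested genes), with 4 lower and 6 higher in KO and a median log2 fold change of 0.04. Cd163, the macrophage receptor for hemoglobin bound to haptoglobin, measured 5.0, 6.06 and 4.89 FPKM across WT against 7.36, 9.01 and 9.79 FPKM across KO, without overlap (limma, log2 fold change 0.62, adjusted p 0.0831). Hmox2, the constitutive heme oxygenase, measured 57.8, 67.05 and 69.5 FPKM across WT against 51.4, 40.8 and 34.6 FPKM across KO, also without overlap (limma, −0.62, adjusted p 0.099). The 10 macrophage markers were all higher in KO by their log2 fold change, and 0 were called (limma; 4 of 10 at an unadjusted p under 0.05, beside the same 19.2%).

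The 10 genes whose levels ran closest to Slc4a1, a search added after the data were seen, were F3, Pdk4, Gm3086, Tmcc2, 3930402G23Rik, Arl15, Fam46c, Slc1a4, Pcsk5 and Gadd45g, with r from 0.934 to 0.993 over 6 libraries. Only Fam46c is in the red cell lists. Pdk4, a kinase that restrains glucose oxidation, measured 288, 222 and 268 FPKM across WT against 204, 216 and 785 FPKM across KO, and Tmcc2 measured 6.92, 4.38 and 6.13 FPKM across WT against 4.54, 4.39 and 19.7 FPKM across KO. KO replicate 3 was the highest library for both.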
